A study of Mus musculus with 2 samples.

Results

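The aryl hydrocarbon receptor gene Ahr, its partner gene Arnt and the 2 feedback genes Ahrr and Tiparp were taken by name from a table of 17238 genes, and all 4 members were present in it. They were described in innate lymphoid cells (ILC) of the mouse gut, measured by droplet-based single-cell RNA sequencing in which each captured transcript end carries a unique molecular identifier (UMI). The series held 2 libraries, 1 from the small intestine (5490 cells) and 1 from the colon (7549 cells). Both came from C57BL/6 mice aged 8 weeks, titled as fed, with no genotype or agent named in the labels, and both were sorted as IL7ra+ ILC. Each library was a pool of 8 mice, so tissue and library cannot be told apart and no difference between tissues could be tested.

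AHR is a ligand-activated transcription factor of the bHLH-PAS family. Without ligand it is held in the cytosol by chaperones. Ligands, among them dietary indoles and tryptophan metabolites of gut microbes, release it into the nucleus, where it pairs with ARNT and binds DNA at sites with the core letters GCGTG. AHRR, which AHR itself induces, competes with it for ARNT and represses its targets. TIPARP, also induced by AHR, is an ADP-ribosyltransferase that modifies AHR and promotes its degradation. In the gut the receptor is known for its part in maintaining group 3 ILC and their production of the cytokine encoded by Il22.

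Ahr (ENSMUSG00000019256) lies on the minus strand of mm10 at chr12:35497974-35535038, and Ahrr (ENSMUSG00000021575) on the minus strand at chr13:74211118-74292331. Arnt (ENSMUSG00000015522) lies on the plus strand at chr3:95434388-95497240 and Tiparp (ENSMUSG00000034640) on the plus strand at chr3:65528410-65555518. In the GENCODE annotation the lincRNA gene Gm48236 overlaps Ahr on the other strand, and the pseudogene 4931440P22Rik overlaps Tiparp on the other strand. The pseudogene Gm42672 overlaps Arnt on the same strand, so some reads at Arnt could fall in both annotations. The annotation has no gene overlapping Ahrr.

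The promoter windows of the 3 members held in the RefSeq table (build GRCm38.p6) are shown because the receptor's DNA core can be read in them. Each window runs from 250 bases before to 50 bases after the annotated start, 5′ to 3′ on the gene's strand, and capitals mark GCGTG or its reverse complement CACGC. Ahrr, at chr13:74292282-74292581 on the minus strand, held 3 matches, at -107, -82 and -27 from the start. Tiparp, at chr3:65528197-65528496 on the plus strand, held 1 match at -170, on the opposite strand. Arnt, at chr3:95434140-95434439 on the plus strand, held 1 match at -29.
Ahrr: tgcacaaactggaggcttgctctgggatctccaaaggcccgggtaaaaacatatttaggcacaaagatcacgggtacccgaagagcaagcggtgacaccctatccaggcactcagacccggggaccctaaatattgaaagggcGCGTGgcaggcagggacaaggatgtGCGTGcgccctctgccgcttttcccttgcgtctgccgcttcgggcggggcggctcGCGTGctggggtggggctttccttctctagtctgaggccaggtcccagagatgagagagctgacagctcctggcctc
Tiparp: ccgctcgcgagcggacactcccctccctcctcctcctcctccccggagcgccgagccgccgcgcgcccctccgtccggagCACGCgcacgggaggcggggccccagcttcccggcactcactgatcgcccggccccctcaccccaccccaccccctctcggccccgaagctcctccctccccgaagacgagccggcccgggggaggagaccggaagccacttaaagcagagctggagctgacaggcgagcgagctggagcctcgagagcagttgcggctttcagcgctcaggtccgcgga
Arnt: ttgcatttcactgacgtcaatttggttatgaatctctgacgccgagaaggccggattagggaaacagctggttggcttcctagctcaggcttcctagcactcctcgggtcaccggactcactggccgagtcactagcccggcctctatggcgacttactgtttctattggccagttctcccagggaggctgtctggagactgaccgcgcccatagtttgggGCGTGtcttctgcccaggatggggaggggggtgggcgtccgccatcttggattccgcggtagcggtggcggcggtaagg
At least 1 match was found in 32.4% of all 32851 windows of this length, and 3 or more in 3.91%. The matches are a description of the letters, and no binding was measured here.

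The small intestine library had 15080081 UMIs in its cells and the colon library 22332691, with similar medians of 2579 and 2600 UMIs per cell. Levels are given as UMIs summed over the cells of a group and scaled to counts per 1000000 UMIs of those cells (CPM), with 95% exact Poisson intervals, and ratios carry 95% exact conditional binomial intervals. All intervals cover counting error only, not the spread between mice or libraries, and the sums of a pool cannot separate fewer expressing cells from less RNA per cell. Cells were grouped by at least 1 UMI of Ccr6 (marking lymphoid tissue inducer-like cells), Ncr1 (natural cytotoxicity receptor-bearing ILC), Gata3 (high in group 2 ILC), Klrd1 (a natural killer receptor chain) or Cd3e (a T cell receptor signalling chain). The groups overlap, and 724 cells of the small intestine and 1022 of the colon carried 2 or more markers. The median gene stood 0.20 higher on the log2 scale in the small intestine, so a tissue ratio of 1 lies below that of the median gene. The 2 libraries shared 60 barcodes, against 56.2 expected if barcodes were drawn independently, and no doublets were removed.

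The marker groups were checked against fixed marker lists, each summed in CPM. Ccr6+ cells carried the group 3 list (6 genes, among them Il22 and Il23r) at 8276 CPM in the small intestine, against 4539 over all its cells. The group 2 list (7 genes, Gata3 itself among them) stood at 2513 CPM in small intestinal Gata3+ cells against 1024 over all cells. Part of that rise is fixed by the gate, since Gata3 UMIs define the group. Small intestinal Gata3+ cells also held the group 3 list at 2755 CPM and Il22 at 2454 CPM, against 1044 CPM of Il22 in colonic Gata3+ cells, so Gata3+ is not a pure group 2 gate there. Cd3e+ cells carried Trdc, a constant gene of the gamma-delta T cell receptor, at 1481 CPM in small intestine and 1456 in colon, and Cd3d at 560 and 481 CPM, although both libraries were labelled as sorted ILC. The small intestinal cells without any of the 5 markers held the group 3 list at 6052 CPM and antibody and B cell genes at 19338 CPM (11452 in the colon). Markers of myeloid cells summed to at most 36.2 CPM in any group, with Csf1r at 0 in the 5 marker-positive groups.

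Over all cells Ahr was lower in the small intestine than in the colon, at 88.3 CPM (83.6 to 93.2) from 1332 UMIs and 105 CPM (101 to 110) from 2354 UMIs. The ratio of small intestine to colon was 0.838 (0.783 to 0.897), and the intervals of the levels did not overlap. Of the 11962 genes with at least 20 UMIs over both libraries, 82.7% had a ratio at or above it. When each tissue was given the same makeup of the disjoint marker groups, a comparison added after the data were seen, the ratio was 0.946.

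That modest difference over all cells hid unlike patterns within the groups. In Ccr6+ cells, the group lowest in Ahr among the 5 in both libraries, the level was 68.9 CPM (55.8 to 84.2) in small intestine and 58.8 (47.6 to 71.8) in colon. In Ncr1+ cells it was 83.9 CPM (75.9 to 92.6) and 86.5 (74.7 to 99.6). In both groups the intervals of the libraries overlapped.

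Gata3+ cells held Ahr at 105 CPM (96.1 to 114) in small intestine and 122 (116 to 128) in colon, a ratio of 0.862 (0.780 to 0.951). With at least 2 UMIs of Gata3 asked of a cell that ratio was 0.984. Klrd1+ cells held it at 119 CPM (90.1 to 155) from 56 UMIs and at 86.0 (72.1 to 102), a ratio of 1.39 (0.997 to 1.91). Cd3e+ cells held it at 120 CPM (101 to 142) in small intestine and 75.2 (67.1 to 83.9) in colon. Cd3e+ cells thus had the highest Ahr of the 5 groups in small intestine, with an interval overlapping those of Klrd1+ and Gata3+ cells. In colon they stood above only Ccr6+ cells, with an interval overlapping those of Ccr6+, Klrd1+ and Ncr1+ cells. Their tissue ratio was 1.60 (1.30 to 1.96), with no overlap of intervals between the libraries. Over its alternatives that ratio ranged from 1.41 to 1.80. Cells with none of the markers differed the other way, at 73.0 CPM (65.5 to 81.2) and 104 (94.6 to 115), a ratio of 0.700 (0.605 to 0.809).

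The order of Ahr in the small intestine was Cd3e+, Klrd1+, Gata3+, Ncr1+ and Ccr6+, and in the colon Gata3+, Ncr1+, Klrd1+, Cd3e+ and Ccr6+. Of the 4 pairs of neighbours in each order, 3 had overlapping intervals. The pair set apart was Gata3+ above Ncr1+ in each library. The highest group was 1.74 times as high as the lowest in small intestine and 2.07 times in colon.

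**Figure D1:**
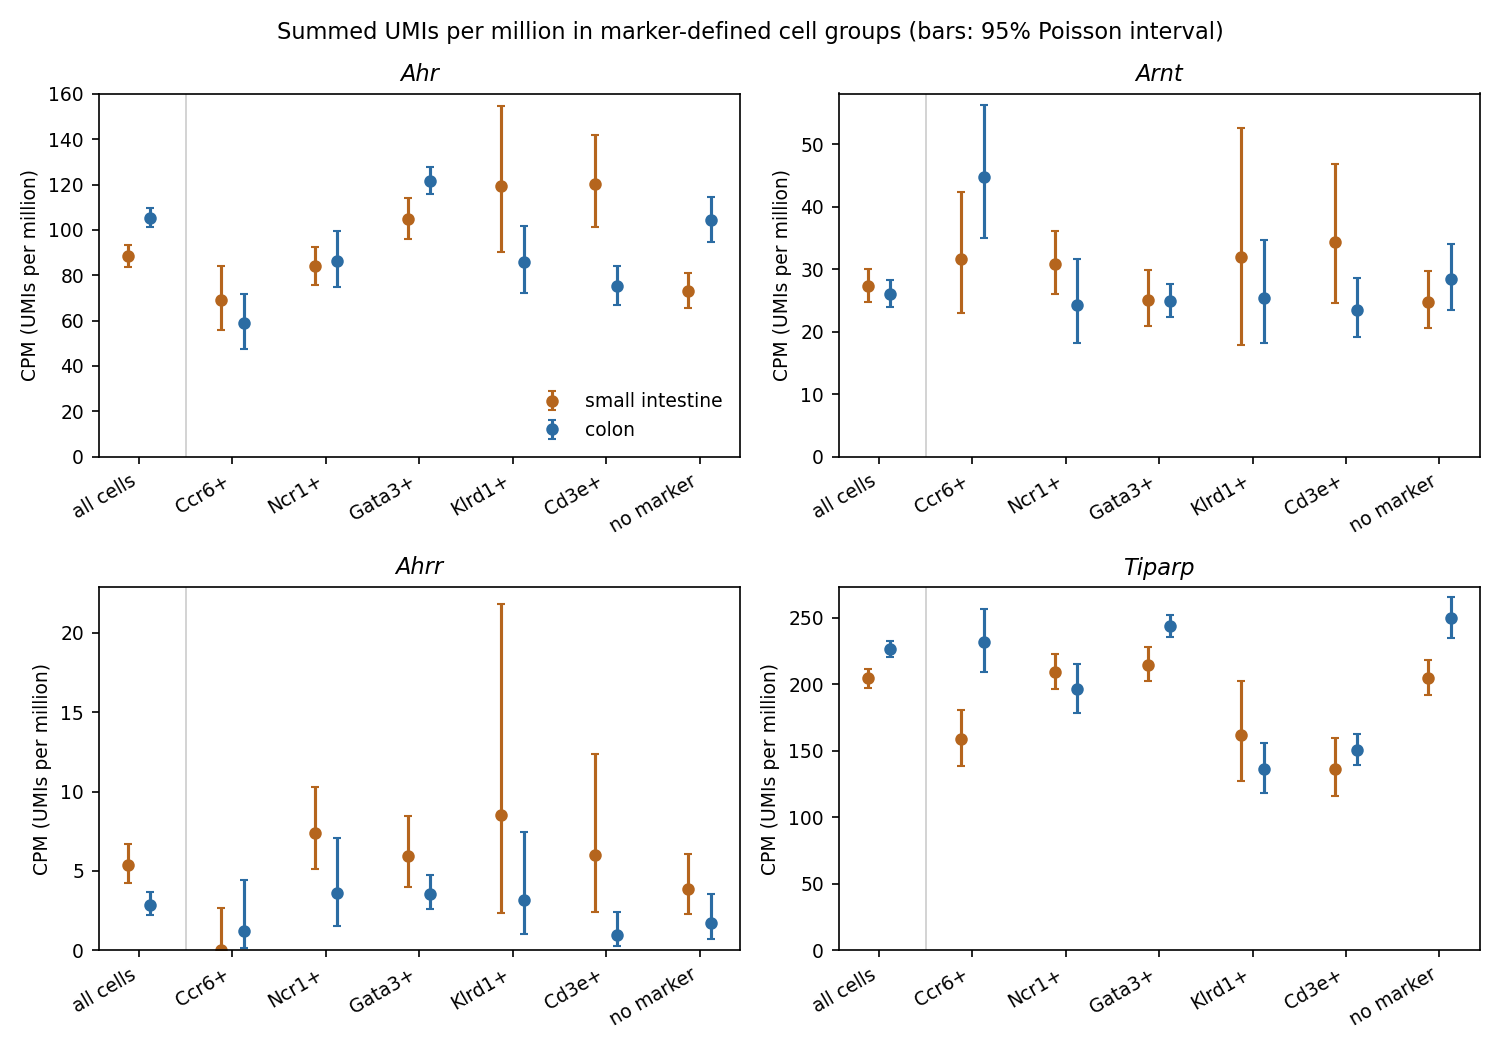
CPM (UMIs per 1000000, vertical axis) of each member in all cells, the 5 marker-positive groups and the cells with no marker (horizontal axis), for small intestine and colon, as points with 95% Poisson intervals. Ahr in Cd3e+ cells is higher in the small intestine (120 against 75.2 CPM), while Tiparp in Ccr6+ cells is higher in the colon (232 against 159 CPM).

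Within a library, marker-positive and marker-negative cells share the same mice and handling. Gata3-positive cells had 1.31 times (1.17 to 1.46) the Ahr CPM of Gata3-negative cells in small intestine and 1.51 times (1.38 to 1.65) in colon. Only 9.25% of genes tested in small intestine and 6.79% in colon had as high a ratio. Ccr6-positive cells lay below Ccr6-negative cells in both libraries, at 0.764 (0.614 to 0.940) and 0.539 (0.435 to 0.661). Ahr was thus higher in Gata3-positive and lower in Ccr6-positive cells in both libraries. With cells positive for Ccr6 alone set against cells with no marker, the ratio was 0.754 (0.549 to 1.02) in small intestine and 0.403 (0.255 to 0.608) in colon. The small intestinal interval of that comparison includes 1.

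For Cd3e the libraries differed in direction. Cd3e-positive cells had 1.40 times (1.17 to 1.67) the Ahr CPM of Cd3e-negative cells in small intestine and 0.668 times (0.592 to 0.753) in colon. Klrd1-positive cells likewise had 1.37 times (1.03 to 1.78) in small intestine and 0.804 times (0.671 to 0.957) in colon. Neither difference between the libraries could be tested. With cells positive for Klrd1 alone set against cells with no marker (31 and 120 cells), the ratios were 1.84 (0.875 to 3.43) and 0.277 (0.126 to 0.532), and the tissue ratio was 4.64 (1.70 to 12.9) from 10 and 9 UMIs. In cells positive for Cd3e alone, Ahr was at 114 CPM (90.8 to 142) in 282 small intestinal cells and 63.3 (53.2 to 74.8) in 870 colonic cells, a ratio of 1.80 (1.36 to 2.39). In cells positive for both Klrd1 and Cd3e it was at 178 CPM (115 to 263) in 50 small intestinal cells and 63.3 (39.2 to 96.8) in 94 colonic cells. Those 50 cells were among the 172 small intestinal Klrd1+ cells and held 25 of their 56 Ahr UMIs, so the Klrd1 and Cd3e splits share cells. Cells positive for both Klrd1 and Ncr1 held Ahr at 87.1 CPM (55.2 to 131) in small intestine and 96.1 (74.9 to 121) in colon.

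Other genes moved with this contrast. Gzma, a granule protease gene of cytotoxic lymphocytes, was at 752 CPM in small intestinal and 3.56 in colonic Cd3e+ cells, but was found in only 5.83% of the former. Cd8a was at 45.5 and 4.74 CPM, while Trdc was nearly equal. The natural killer list (8 genes, all found in both) summed to 1045 CPM in small intestine and 147 in colon, but it includes Gzma, which alone gave 752 and 3.56 CPM of these sums. Their part in the Ahr difference was not tested.

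**Figure D2:**
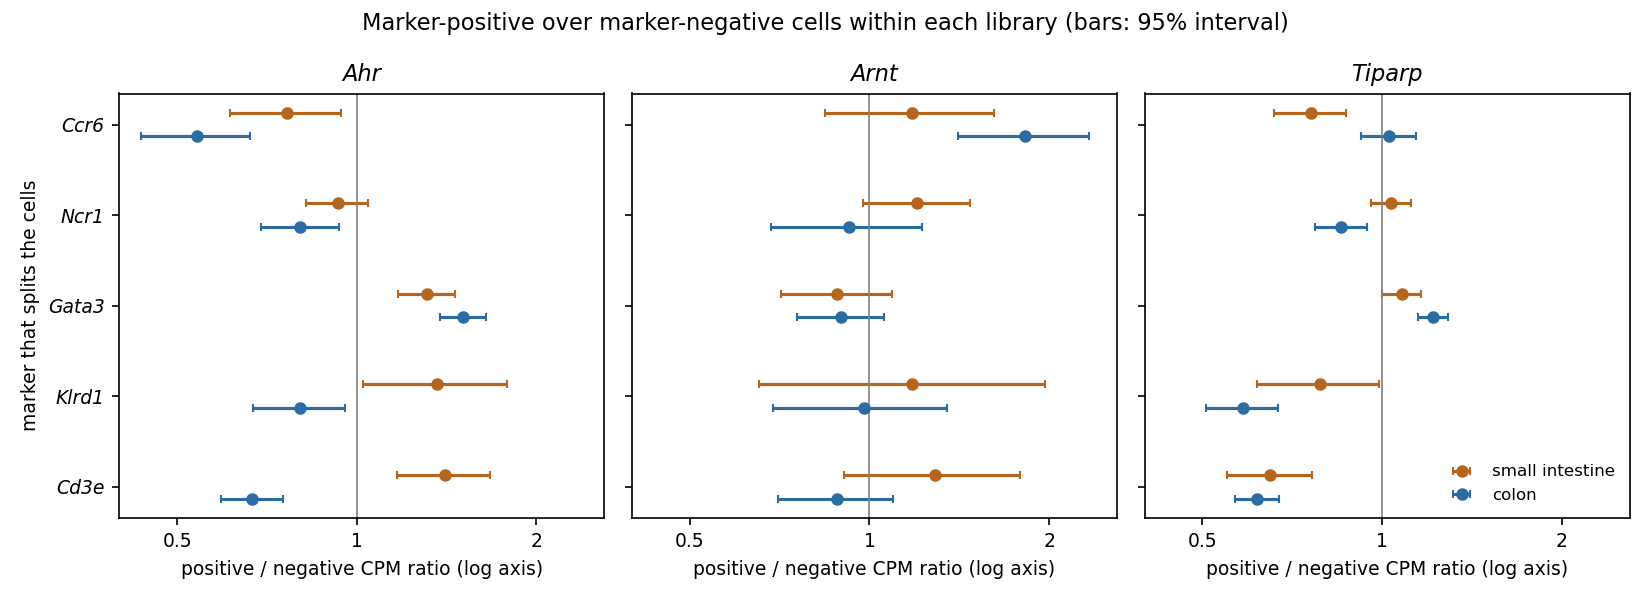
Ratio of CPM in marker-positive to marker-negative cells (horizontal log axis) for Ahr, Arnt and Tiparp, by marker (vertical axis) and library, as points with 95% intervals. For Ahr the Gata3 ratios lie above 1 (1.31 and 1.51) and the Ccr6 ratios below 1 (0.764 and 0.539) in both libraries, while the Cd3e ratios lie on opposite sides (1.40 and 0.668).

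Arnt, whose product pairs with AHR and with other bHLH-PAS factors, was at 27.3 CPM (24.7 to 30.02) in small intestine and 26.0 (23.9 to 28.2) in colon. Its tissue ratio was 1.05 (0.921 to 1.19), and 0.902 when libraries were scaled by the median gene ratio, so its direction depended on the scaling. Among the groups it ranged from 25.1 CPM in Gata3+ to 34.4 in Cd3e+ cells of the small intestine, where all 4 neighbouring pairs overlapped. In the colon Ccr6+ cells stood apart, at 44.7 CPM (35.03 to 56.2), with the other groups between 23.5 and 25.5. The margin was narrow, since the interval of Klrd1+ cells reached 34.7 CPM. Ccr6-positive cells of the colon had 1.82 times (1.40 to 2.33) the Arnt CPM of Ccr6-negative cells, against 1.18 (0.842 to 1.61) in the small intestine. The colonic Ccr6+ cells were deeper (a median of 3443 UMIs, against 2577 in Ccr6-negative cells) and 50.1% of them carried another of the markers. The cells positive for Ccr6 alone had 47.3 CPM of Arnt from 27 UMIs, 1.66 times (1.05 to 2.55) the cells with no marker. Among the 6 colonic groups of cells with exactly 1 marker or none, all 5 neighbouring pairs in the order of Arnt overlapped.

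In Ccr6+ cells of the colon the receptor and its partner thus stood at opposite ends of the group order, with Ahr at its lowest among the 5 groups and Arnt at its highest. Over 12 disjoint groups (cells with exactly 1 marker, or none, in each library), Pearson's r between Ahr and Arnt on the log2(CPM + 1) scale was -0.53. These 12 points share their 2 libraries and 1 of them holds 31 cells, so the value is a description.

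Ahrr, the repressor, was the member with the fewest UMIs. It was at 5.37 CPM (4.27 to 6.68) from 81 UMIs in small intestine and 2.87 (2.21 to 3.66) from 64 UMIs in colon. The ratio of 1.87 (1.33 to 2.64) was the highest of the members', and 10.7% of genes tested had as high a ratio. The free RNA of each library, read from barcodes with 10 to 50 UMIs, held Ahrr at 6.05 and 2.32 CPM from 11 and 4 UMIs. Free RNA was estimated at 5.36% and 8.25% of the UMIs in cells, so it makes up a small part of such sums, but a single UMI in a cell can come from it.

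Ahrr was not found in Ccr6+ cells of the small intestine: 0 of 541 cells. By counting error alone, 3 counts would be a share of 0.555% of cells with a UMI (not of cells expressing the gene) or 2.15 CPM, and the exact upper limits are 0.680% and 2.65 CPM. Against Ccr6-negative cells at 5.92 CPM, the ratio computed with 3 UMIs was 0.364, and its exact upper limit was 0.458. For cells positive for Ccr6 alone against cells with no marker, the upper limit was 1.17 and so includes 1. Colonic Ccr6+ cells had 2 UMIs, at 1.22 CPM (0.148 to 4.42). In Ncr1+ cells Ahrr was at 7.38 CPM (5.14 to 10.3) from 35 UMIs and 3.59 (1.55 to 7.07) from 8 UMIs, a ratio of 2.06 (0.938 to 5.13) whose interval includes 1. As a mean of per-cell CPM that ratio was 1.57, the lowest of its alternatives, and it was also under 2 when scaled by the median gene ratio (1.83) and with at least 2 UMIs of Ncr1 asked of a cell (1.78). In Gata3+ cells it was at 5.92 CPM (3.99 to 8.45) and 3.55 (2.62 to 4.71), a ratio of 1.67 (1.02 to 2.68). Cd3e+ cells had 7 UMIs in small intestine and 4 in colon, and Klrd1+ cells 4 and 5.

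Within the small intestine Ncr1-positive cells had 1.66 times (1.04 to 2.63) the Ahrr CPM of Ncr1-negative cells. Within the colon Gata3-positive cells had 1.96 times (1.09 to 3.69) that of Gata3-negative cells. The matching ratios in the other library were 1.29 (0.530 to 2.72) for Ncr1 in the colon and 1.16 (0.715 to 1.86) for Gata3 in the small intestine, both with intervals that include 1. Of the 4 neighbouring pairs in the group order of Ahrr, 3 overlapped in small intestine and all 4 in colon.

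Tiparp, whose product ADP-ribosylates AHR, was at 205 CPM (197 to 212) in small intestine and 226 (220 to 233) in colon. Its ratio of 0.903 (0.863 to 0.945) lay on the same side as that of Ahr. The Ccr6+ cells held 159 CPM (138 to 181) in small intestine and 232 (209 to 257) in colon. Their ratio of 0.684 (0.577 to 0.810) was the lowest tissue ratio of Tiparp among the 5 groups, and the intervals did not overlap. Those cells also differed in depth, with a median of 2366 UMIs in small intestine and 3443 in colon. Among stress and dissociation genes, Fos was at 2663 and 1576 CPM in them, Jun at 3452 and 1122, and Hspa1a at 105 and 530, and the part of depth and of these genes in the Tiparp ratio was not tested. Ncr1+ cells had 210 and 196 CPM, Gata3+ cells 215 and 244, Klrd1+ cells 162 and 136, and Cd3e+ cells 137 and 151.

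Cd3e-positive cells had less Tiparp than Cd3e-negative cells in both libraries, at 0.650 times (0.550 to 0.762) in small intestine and 0.618 times (0.568 to 0.671) in colon. Tiparp was therefore low in Cd3e+ cells of both tissues, including the small intestine, where they had the highest Ahr of the 5 groups. Klrd1-positive cells also had less Tiparp, at 0.786 (0.617 to 0.987) and 0.584 (0.507 to 0.670), but in the small intestine the ratio was 1.05 when only the 31 cells positive for Klrd1 alone were set against cells with no marker. Gata3-positive cells had 1.08 (1.001 to 1.16) and 1.22 times (1.15 to 1.29) the level of Gata3-negative cells. In colonic cells positive for Gata3 alone it was 1.02 (0.952 to 1.10) against cells with no marker. The immediate-early genes Fos and Jun, which cell handling can raise, were also low in Cd3e+ cells of the small intestine, at 983 and 1286 CPM against 1622 and 2156 in Cd3e-negative cells. In the colon they were at 1091 and 660 CPM against 1572 and 914, and their part in the Tiparp difference was not tested.

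No member reached a tissue ratio of 2 over all cells, where 8.92% of genes tested had at least 2-fold more in small intestine and 5.42% in colon. In the groups, with at least 20 UMIs asked of each gene, 1 member of 4 tested did so in Ncr1+ cells (Ahrr, a call lost under the 3 alternatives given above), where 13.4% of genes did in either direction. The counts were 0 of 3 in Ccr6+ cells (10.9% of genes), 0 of 4 in Gata3+ (11.8%), 0 of 3 in Klrd1+ (12.1%) and 0 of 3 in Cd3e+ cells (9.4%). Ahrr had under 20 UMIs in the 3 groups where 3 members were tested.

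Most cells had no UMI of a given member. Ahr was found in 982 of 5490 small intestinal cells (17.9%, Clopper-Pearson interval 16.9 to 18.9) and in 1713 of 7549 colonic cells (22.7%, 21.8 to 23.7), with at most 6 UMIs in a cell. After every cell was thinned to 1000 UMIs the shares were 8.00% (7.29 to 8.75) and 9.72% (9.06 to 10.4), so Ahr was found in more cells of the colon at equal depth as well. Tiparp was found in 34.7% and 39.2% of cells, and in 15.8% and 18.4% after thinning. Arnt was found in 7.07% and 7.25%, and in 2.73% (2.32 to 3.20) and 2.62% (2.27 to 3.01) after thinning. Ahrr was found in 1.42% and 0.848%, and in 0.383% (0.237 to 0.584) and 0.278% (0.172 to 0.425) after thinning, where the intervals overlapped.

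The variance of the thinned counts over cells was 1.21 times the mean for Ahr in each library, and 1.25 and 1.17 times for Tiparp. The intervals of these members, for levels and for ratios, are therefore too narrow. Thinning lowers this excess, and it was not computed at full depth, where the intervals apply. An interval that only just leaves out 1 should be read with that limit. Of small intestinal cells, 1 held 4 UMIs of Ahrr, and every other cell of both libraries held at most 1. In free RNA, Ahr was at 38.5 CPM in small intestine and 45.2 in colon, below its level in each of the 5 marker-positive groups. In the colon, cells positive for Ccr6 alone (42.0 CPM) and for Klrd1 alone (28.9 CPM, from 9 UMIs) were below that free RNA level. Tiparp there was at 153 and 204 CPM, which is not below its level in Cd3e+ cells (137 and 151). In the colon the free RNA level was also above that of Klrd1+ (136) and Ncr1+ cells (196).

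Once depth was equal, the share of cells with Tiparp hardly depended on whether Ahr was found. After thinning, Tiparp was found in 15.7% (12.4 to 19.5) of small intestinal cells with Ahr and 15.8% (14.8 to 16.9) of those without. In the colon the shares were 17.4% (14.8 to 20.4) and 18.5% (17.6 to 19.5). Arnt was found in 1.14% (0.371 to 2.64) of small intestinal cells with Ahr and 2.87% (2.43 to 3.37) of those without, but in 3.81% (2.55 to 5.47) and 2.49% (2.14 to 2.89) in the colon. The order of the Arnt shares was thus opposite in the libraries, and the intervals overlapped in each.

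Cells were also split by single genes that AHR is reported to regulate or that mark lymphoid subsets. Ahr was lower in cells with a UMI of Il22, at 79.7 CPM against 117 in the small intestine (ratio 0.679, 0.604 to 0.765) and 86.5 against 120 in the colon (0.721, 0.662 to 0.785). Cells with a UMI of Il23r, a receptor gene of the interleukin pathway upstream of Il22, were lower in Ahr too, at 74.0 against 90.9 CPM (0.814, 0.689 to 0.956) and 60.6 against 109 (0.558, 0.448 to 0.687). Il22 transcripts were found in 4176 of the 5490 small intestinal cells, so the Il22 split does not isolate producing cells there. Splitting by Il1r1 gave Ahr ratios of 0.886 (0.753 to 1.04) in small intestine and 0.598 (0.498 to 0.713) in colon. For Kit they were 1.06 (0.942 to 1.18) and 0.898 (0.822 to 0.981). The small intestinal intervals of Il1r1 and Kit include 1.

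Klrg1, an inhibitory receptor gene of mature group 2 ILC, split Ahr the other way. Ahr was at 115 CPM in Klrg1-positive and 81.2 in Klrg1-negative cells of the small intestine (1.42, 1.25 to 1.60), and at 129 and 80.4 in the colon (1.60, 1.47 to 1.75). Il13-positive cells, which carry a group 2 cytokine transcript, were higher too, at 1.36 (1.02 to 1.77) and 1.22 (1.05 to 1.41). Thus Ahr was higher in Klrg1-positive and lower in Il22-positive cells in both tissues.

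Trdc divided the tissues as Cd3e had, and the splits share cells, since 72.0% of small intestinal and 78.9% of colonic Cd3e+ cells held a UMI of Trdc. Trdc-positive cells had Ahr at 108 CPM against 86.4 in the small intestine (1.25, 1.05 to 1.496) and at 75.4 against 113 in the colon (0.665, 0.592 to 0.746). Cells with Cd4, carried by T helper and some inducer-like cells, were lower in Ahr in the colon, at 52.2 against 110 CPM (0.474, 0.382 to 0.582), and near equal in the small intestine (1.01, 0.731 to 1.37). For Tiparp the Il22 splits gave 1.03 (0.946 to 1.12) and 0.986 (0.932 to 1.04), while cells with Areg, a growth factor gene of tissue repair, had 1.20 (1.11 to 1.31) and 1.19 times (1.13 to 1.26) as much. The intervals of Tiparp at Il22 thus lay above the ratios that Ahr had there.

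**Figure D3:**
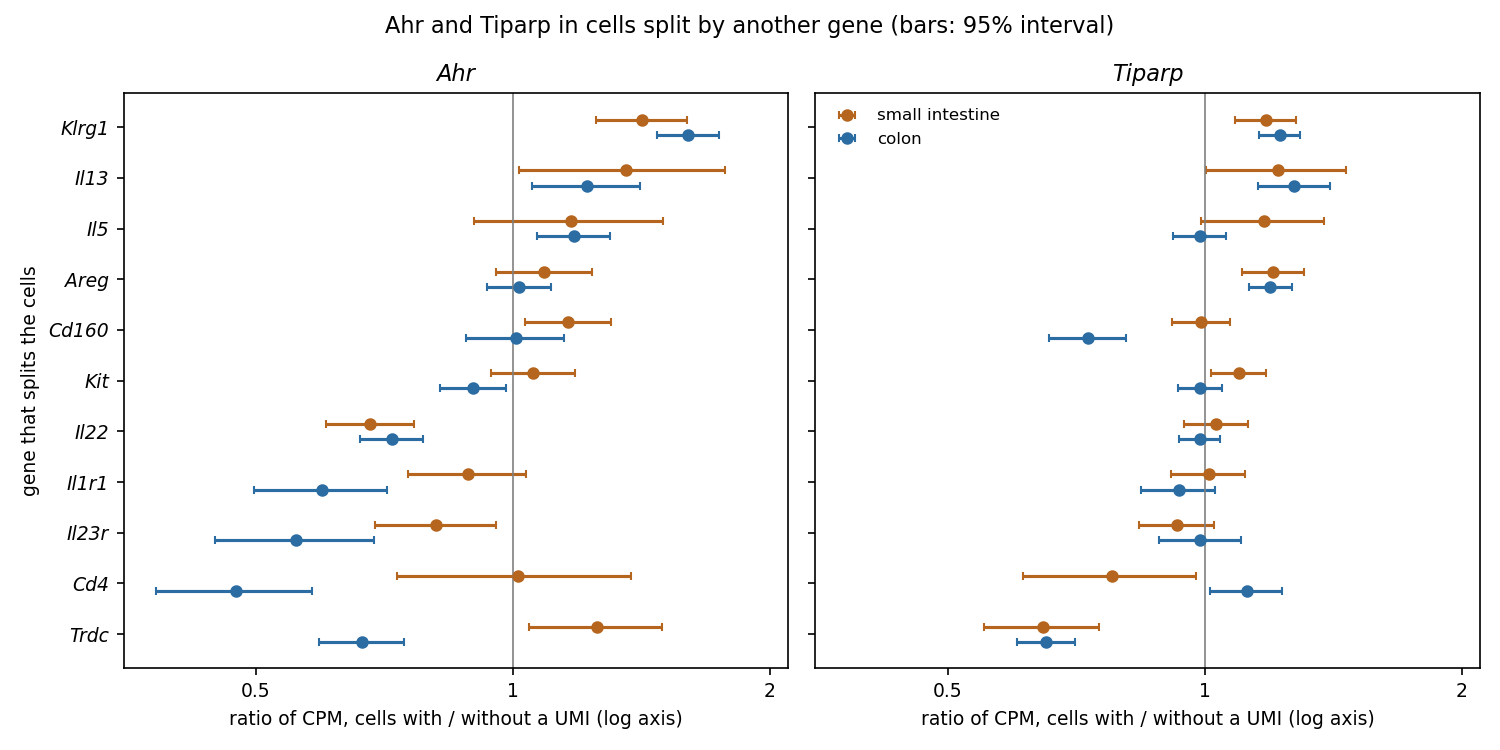
Ratio of CPM in cells with to cells without a UMI of the gene on the vertical axis (horizontal log axis), for Ahr and Tiparp in each library, as points with 95% intervals. For Ahr, Klrg1 and Il13 lie above 1 and Il22 and Il23r below 1 in both libraries, while Trdc lies on opposite sides (1.25 and 0.665). The Ahr intervals of Areg in both libraries and of Il5 in the small intestine include 1.

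The genes whose pattern over the 12 disjoint groups was most like that of a member were ranked by Pearson's r of log2(CPM + 1) among genes with at least 500 UMIs. For Ahr they were Pes1 (0.91), Rad50 (0.90), Fdps (0.88), Rexo4 (0.87) and Ltb4r1 (0.86). For Tiparp they were Cnnm2 (0.88), Swap70 (0.86), Lrrfip2 (0.85), Ppan (0.83) and Lactb (0.83). For Arnt they were Fbrsl1 (0.86), Ski (0.84), Fam53c (0.83), Hbs1l (0.82) and Celf2 (0.81), and for Ahrr, which itself has few UMIs, Lsm6 (0.89), Fnbp4 (0.87), Stip1 (0.85), Gusb (0.84) and Erap1 (0.83). None of the other members was among these genes, and r was 0.37 between Ahr and Tiparp and 0.14 between Ahr and Ahrr. In the 31 small intestinal cells positive for Klrd1 alone, Ahrr had 0 UMIs and entered at 0 CPM, although its upper limit there was 49.6 CPM. Colonic cells positive for Ccr6, Klrd1 or Cd3e alone each held 1 UMI of Ahrr as a group. The r values of Ahrr, and the genes ranked by them, are therefore weakly determined.

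The 12 genes of the receptor's cytosolic and nuclear partners were measured in full, with 0 at least 2-fold higher in small intestine and 1 in colon. Of all genes tested, 8.92% and 5.42% were that much higher in small intestine and in colon, and the counts of this and the following lists are to be read against those shares. Their median log2 ratio was 0.11, beside 0.20 for all genes tested. The exception was Arnt2, a paralog of Arnt best known from neurons, with 4 UMIs (0.265 CPM) in small intestine and 96 (4.30 CPM) in colon, 16.2 times (6.13 to 60.7) as high in the colon. In the colon it was at 21.4 CPM in Ccr6+ cells, the group with the highest Arnt. Hsp90ab1, a chaperone of the complex, was at 819 and 1004 CPM (0.815, 0.798 to 0.834), the same side as Ahr. Nrip1, a nuclear co-regulator, was at 1134 and 689 CPM (1.65, 1.61 to 1.68).

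Of the 12 genes of the xenobiotic battery, the enzymes and regulators that AHR is known to control in liver and gut lining, 5 had at least 20 UMIs over both libraries. Cyp1a1, the classical target, had 0 UMIs in small intestine and 1 in colon. Cyp1a2, Cyp1b1, Gsta1, Ugt1a6a and Ugt1a6b had 0 UMIs in these cells, where 3 UMIs would be 0.199 CPM in small intestine and 0.134 in colon. Gstm1, a glutathione transferase gene, was at 23.0 and 11.1 CPM (2.06, 1.75 to 2.44), and Nqo1, a quinone reductase gene, had 14 and 9 UMIs (2.30, 0.929 to 6.03). Aldh3a1, an aldehyde dehydrogenase gene, was 5.87 times (3.05 to 12.7) as high in the colon, from 10 and 87 UMIs. The interval of the Nqo1 ratio includes 1. The list thus had 2 genes at least 2-fold higher on the small intestinal side and 1 on the colonic side, against 8.92% and 5.42% of all genes, and 0 on the former side when scaled by the median gene ratio. Its median log2 ratio was 0.18, beside 0.20 for all genes. The classical target was thus at or near 0 in cells that held UMIs of the feedback genes Ahrr and Tiparp in both libraries.

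Of 17 relatives in the bHLH-PAS family and their coactivators, 10 were measured, with 2 at least 2-fold higher in small intestine, 0 in the colon and a median of 0.25, beside 0.20 for all genes. Under the median gene ratio the count of 2 became 0. These were Npas2, at 7.23 and 3.36 CPM (2.15, 1.59 to 2.93), and Per1, at 163 and 81.0 CPM (2.01, 1.89 to 2.14), both of the circadian clock. Epas1, a hypoxia factor whose product also pairs with ARNT, was at 115 and 58.9 CPM (1.95, 1.81 to 2.095). Hif1a, its relative, was at 57.0 and 65.5 CPM (0.871, 0.7998 to 0.948), and Arntl, the clock partner, at 38.7 and 36.9 (1.05, 0.940 to 1.17). The genes Ncoa1, Ncoa2 and Ncoa3 stand in this list and in that of the receptor's partners.

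Of 11 genes that make or carry tryptophan-derived ligands, 7 were measured, with 1 at least 2-fold higher in small intestine, 3 in the colon and a median of 0.05, beside 8.92%, 5.42% and 0.20 for all genes. Under the median gene ratio the count of 1 became 0. Ido1, Ido2 and Tdo2, which open the tryptophan ring, had 0 UMIs in these cells. The amino acid carriers Slc7a5, at 4.97 and 14.8 CPM, and Slc7a8, at 12.2 and 42.0 CPM, were 2.98 (2.31 to 3.88) and 3.45 times (2.94 to 4.06) as high in the colon. Il4i1, an amino acid oxidase gene, was 2.52 times (1.27 to 5.43) as high in the colon from 11 and 41 UMIs. Kmo, of the kynurenine pathway, was higher in the small intestine from 21 and 14 UMIs (2.22, 1.08 to 4.72).

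Of 16 genes reported to depend on AHR in lymphoid cells, 15 were measured, with 5 at least 2-fold higher in small intestine, 1 in the colon and a median of 0.63, beside 8.92%, 5.42% and 0.20 for all genes. Under the median gene ratio the counts of 5 and 1 became 3 and 2. Of the 5, those described are Cd160 (3.50, 3.24 to 3.79), Il23r (2.97, 2.66 to 3.33), Il22, at 4091 and 1847 CPM (2.21, 2.19 to 2.24), and Il1r1 (2.21, 1.997 to 2.45). Il23r, Il22 and Il1r1 are also in the group 3 marker list, and Gata3+ cells made up 29.9% of the small intestinal and 55.9% of the colonic cells. Il1rl1, the alarmin receptor gene of group 2 ILC, was 8.27 times (7.04 to 9.77) as high in the colon. Kit was at 163 and 136 CPM (1.20, 1.14 to 1.27). Within Ccr6+ cells the Il22 ratio was 1.08 (1.06 to 1.11), with 7430 and 6851 CPM.

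**Figure D4:**
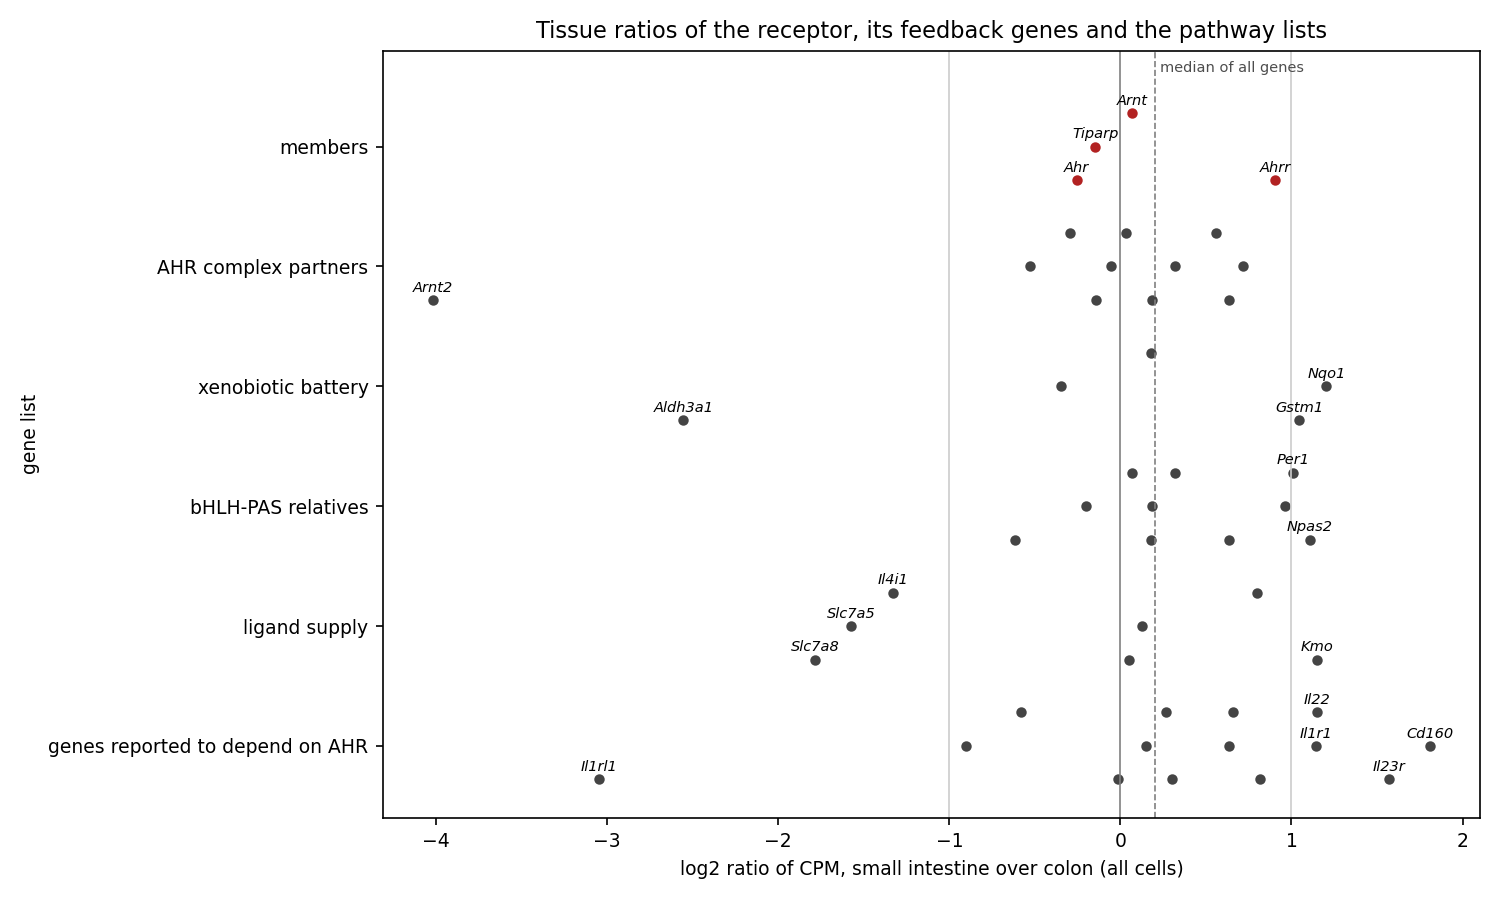
Log2 ratio of CPM, small intestine over colon, over all cells (horizontal axis) for the 4 members and for each gene with at least 20 UMIs in the 5 lists (vertical axis), with genes of at least 2-fold named and genes not reported here left out. The dashed line is the median of all genes tested (0.20), and Ahr, Tiparp and Arnt lie to its left while Ahrr lies to its right.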

How the data were processed

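The authors deposited a table of UMI counts per gene and cell (17238 genes) and the unfiltered count matrices of both libraries. Per the submitters' processing notes, reads were processed with Cell Ranger 3.0.2 against mm10. How cells and genes of the table were chosen is not given in the sources used here, and 0 values of the table differed from the matrices. The small intestine library had 19745585 UMIs in all and the colon library 25548284.

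Counts were summed per group and scaled to CPM in Python 3.11.15 (numpy 2.4.6, scipy 1.17.1). A ratio was read for genes with at least 20 UMIs over both libraries, and against a group at 0 it was computed with 3 UMIs. Ratios and intervals were tested on simulated Poisson counts only. Those counts lack the extra variance between cells described above, so the coverage of the intervals in these data was not tested. Free RNA was read from barcodes with 10 to 50 UMIs, and its share in cells was estimated from antibody genes in cells with at most 10 antibody UMIs. The automatic Scrublet threshold (scanpy 1.11.5) marked 0 and 1 cells and so did not work.

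The members and lists were chosen with earlier results of these data known. The genes named are the members, the markers, preset pathway genes, list genes of at least 2-fold and the 5 genes of the most similar pattern for each member. Epas1, Hsp90ab1, Nrip1, Areg, Klrg1, Il13, Il5, Cd4, Trdc, Gzma and Cd8a were named after their values were seen. Some genes of the lists are not reported here, though the list counts and medians include them.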

Additional observations from a re-analysis of the deposited data

Results flagged for a closer look

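Ahr, set in Cd3e-positive against Cd3e-negative cells, stood on opposite sides of 1 in the libraries, at 1.40 in small intestine and 0.668 in colon. The Klrd1 split did the same, at 1.37 and 0.804, but it shares cells with the Cd3e split. In the small intestine 50 of the 172 Klrd1+ cells were also Cd3e+ and held 25 of the 56 Ahr UMIs of that group. The tissue ratio of Ahr, small intestine over colon, was 1.60 in Cd3e+ cells and 0.862 in Gata3+ cells. With 1 library per tissue these differences were not tested. Over its alternatives, the Cd3e ratio ranged from 1.36 to 1.56 in small intestine and from 0.607 to 0.670 in colon.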

How the results depend on the processing

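No paired analysis was possible because each tissue has 1 library and no replicate. Over all cells, 28 of 32 alternative values of the members' tissue ratios moved by less than the counting interval. Scaling by the median gene ratio gave 0.721 for Ahr, 0.902 for Arnt, 0.777 for Tiparp and 1.61 for Ahrr (within its interval), and the same makeup of groups, added after the data were seen, gave 0.946 for Ahr. With at least 2 UMIs of the marker, the positive over negative ratios of Ahr were 0.430 for Ccr6 in the colon, and 1.47 (small intestine) and 1.29 (colon) for Gata3. With cells of exactly 1 marker they were 0.403, 1.54 and 1.23. That setting reversed the Klrd1 ratio of Tiparp in the small intestine (1.05, from 31 cells). Of all positive over negative ratios, those above included, 332 of 349 alternative values stayed within their interval, 16 moved and 1 reversed. Of the tissue ratios in the groups, 160 of 170 stayed. Of the list counts of at least 2-fold higher genes in the small intestine, the xenobiotic count was 1 with at least 100 UMIs asked and 0 under the median gene ratio. The bHLH-PAS count was 0 under that ratio, the ligand count 0 under both, and the AHR-dependent count 3 under that ratio. In the colon the xenobiotic count was 0 with at least 100 UMIs, and the AHR-dependent count 2 under the median gene ratio and without the UMI minimum. Leaving out cells of more than 10 antibody UMIs was also added after the data were seen. Depth limits Ahrr most, with 81 and 64 UMIs.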
